A study of Mus musculus with 24 samples.

Results

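The genes described here are 9 genes of the antibody-triggered effector machinery of phagocytes: the Fc gamma receptor genes Fcgr1, Fcgr2b, Fcgr3 and Fcgr4, the shared receptor chain gene Fcer1g, and the NADPH oxidase genes Cybb, Cyba, Ncf1 and Ncf4. They were taken by name, with every probe that carries one of these names on the array, which gave 16 probes of 41174. All 9 had a probe that passed the filter on dim signals, among 15095 genes that did. They were measured in RAW264.7, an established mouse macrophage-like cell line, made to carry a construct for Tbc1d23 or, as the control, for CAT (chloramphenicol acetyltransferase, a bacterial enzyme). Both lines grew in DMEM with FBS and the selection drug G418. Each was left without LPS (lipopolysaccharide, a bacterial cell wall component) or given 20 ng/ml of it for 1, 3 or 5 h. The 24 arrays thus form 8 groups of 3 replicates, called CAT line or Tbc1d23 line with the hours of LPS, and the unexposed groups are called 0 h or resting. There was 1 line per construct, so a difference between the lines holds for this pair of lines. The design text calls the replicates biological but no source used here ties them to separate cultures; a p-value therefore refers to the spread between these samples, which may be technical.

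Fc gamma receptors bind the constant part of IgG on coated particles and immune complexes. Fcgr1 (the high-affinity receptor CD64), Fcgr3 and Fcgr4 are activating receptors that signal through the gamma chain encoded by Fcer1g, whose ITAM motif recruits the kinase Syk. Fcgr2b is the inhibitory receptor, which carries an ITIM motif and recruits the lipid phosphatase SHIP-1. Engagement of the activating receptors starts uptake of the particle and assembly of the NADPH oxidase, which makes superoxide. Its membrane core is gp91phox (Cybb) bound to p22phox (Cyba), and its cytosolic part includes the organiser p47phox (Ncf1) and p40phox (Ncf4), which binds a phosphoinositide on the phagosome. Loss of gp91phox, p22phox or p47phox causes chronic granulomatous disease.

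A level below is the log2 of a probe's processed signal relative to the 75th percentile of its array, so a difference of 1 is 2-fold. Levels are compared between arrays for the same probe; which of a pair of probes is the higher says nothing of their transcripts. Where a gene had several probes the brightest stands for it and the others are given beside it. Differences are means ± SE from a limma fit over all 24 arrays, with n = 3 arrays per group, and a gene was called where its p, adjusted by Benjamini-Hochberg over all genes of the comparison, was under 0.05. None of the 600 spots of the 16 probes was saturated or at the surrogate floor, and 2 were left out as outliers, both of Fcgr2b. Of the 16 probes, 14 were well above background on all 24 arrays, and 1 dim probe each of Fcgr2b and Cybb on 23.

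Between 42.1 and 69.5% of an array's probes were well above background, and its 75th percentile was 157 to 363 signal units. Replicates correlated at 0.967 to 0.993. The arrays sat on 6 slides, each with the 4 times of 1 replicate of 1 line, always in the same position order, so time and array position cannot be told apart. The headers place Tbc1d23 replicates 1 and 2 in 1 slide run and Tbc1d23 replicate 3 with the 3 CAT replicates in another. Differences between the lines are therefore also given within the run that holds both, where they rest on 1 Tbc1d23 array per time. The targeted transcript did not separate the lines on its brighter probe, with a difference of 0.04 ± 0.10 averaged over times (limma adjusted p = 0.745), and was 0.50 ± 0.09 higher in the Tbc1d23 line on its dimmer probe (adjusted p = 5.02e-05). Both averages take the arrays of a slide as independent, which they were not (within-slide correlation 0.568). On the brighter probe the average was 0.40 higher in the Tbc1d23 line with run as a block (limma adjusted p = 0.000555), and 0.40 within the shared run. Whether the lines differ on that probe thus depends on how the run is handled. Of 11 macrophage markers on the array, 9 to 10 were well above background on all 3 arrays of each group, including Lyz2 and Cd68. Between the resting lines 8 of the 10 tested were called, 5 lower and 3 higher in the Tbc1d23 line, against 45.3% of all genes. Adgre1 (F4/80) differed by -2.67 and Cd14 by 0.87, Tbc1d23 line minus CAT line. Summed levels of T and NK cell markers were 0.547 to 0.944 in the resting CAT line and 2.82 to 2.98 in the resting Tbc1d23 line, on a linear scale relative to the 75th percentile, and those of osteoclast markers 9.55 to 13.6 and 6.29 to 7.08. Those of B cell markers were 0.174 to 0.396 and 0.837 to 1.52, and those of dendritic cell markers 1.62 to 2.14 and 0.507 to 0.94. Summed levels of macrophage, granulocyte, mast cell, and fibroblast and epithelium markers overlapped between the resting lines. Of the 8 T and NK cell markers 5 did not pass the filter on dim signals, Cd5 and Lck were higher in the resting Tbc1d23 line (by 2.98 and 1.42) and Cd3e differed by -0.97 (adjusted p = 0.194). The part of these markers in the differences below was not tested. In bulk RNA, fewer cells expressing a gene and less RNA per cell cannot be told apart.

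At rest, 5 of the 9 genes were lower in the Tbc1d23 line than in the CAT line and none was higher. Cybb, Fcgr2b, Fcgr4, Fcgr3 and Ncf4 were 2-fold to 19.4-fold lower, while Fcgr1, Fcer1g, Cyba and Ncf1 did not pass the test. The median difference of the 9 genes was -1.0, against 0.09 over all genes. Over all genes 45.3% were called at rest, 20.2% lower and 25.1% higher, and for 52% the 3 arrays of the lines did not overlap. Counted over every probe, 11 of the 16 were called, all lower, against 45.1% of all probes. The direction of such calls over all genes depends on the scaling: of the genes called, 55.5% were higher in the Tbc1d23 line here, 44% after quantile normalization or in the deposited values, and 18.6% after scaling to the array median, which moves the median of all genes from 0.09 to -0.45. The 5 calls among the members held under each of these, and Fcgr1 was also called lower after quantile normalization (-0.48, adjusted p = 0.00825).

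**Figure D1:**
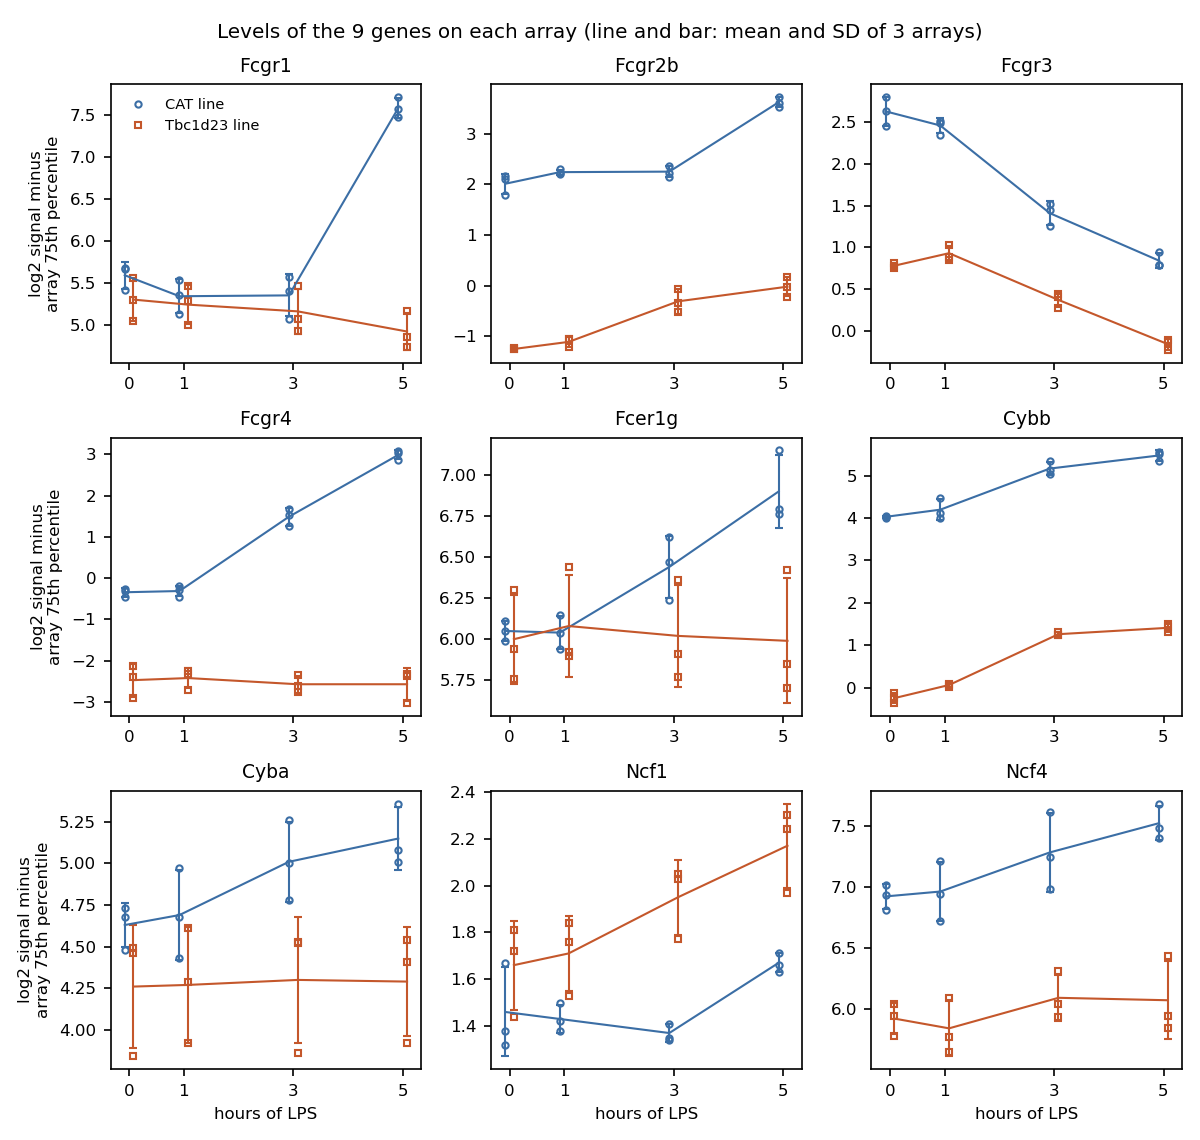
Levels of the 9 genes on each of the 24 arrays (y axis: log2 processed signal relative to the array's 75th percentile, brightest probe of each gene) against hours of LPS (x axis), with points for arrays, and lines and bars for the mean and SD of 3 arrays, in colours for the CAT and the Tbc1d23 line. The arrays of the lines stay apart at every time for Cybb and Fcgr2b, while Fcgr1 separates at 5 h.

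Cybb, the catalytic core of the oxidase, had the largest resting difference of the 9 genes. The 3 resting CAT arrays read 4.0, 4.06 and 4.03 and the 3 resting Tbc1d23 arrays read -0.37, -0.12 and -0.24. The groups were far apart, and the highest Tbc1d23 array at any time, 1.5 at 5 h, stayed below the lowest CAT array. The difference was -4.28 ± 0.11 at rest (19.4-fold lower, limma adjusted p = 3.69e-15), -4.14 at 1 h, -3.91 at 3 h and -4.06 ± 0.11 at 5 h (16.7-fold). Within the shared slide run it was -4.27 at rest and -4.03 at 5 h. The brightest probe lies at chrX:9014314-9014373 on the minus strand (mm9), and the other probe, whose aligned blocks span chrX:9019758-9021685, gave -4.32 ± 0.31 at rest.

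Cyba, the partner that stabilises gp91phox in the membrane, did not share this difference. Its resting levels were 4.48, 4.73 and 4.68 in the CAT line and 4.46, 4.49 and 3.84 in the Tbc1d23 line, with overlapping groups and Tbc1d23 replicate 3 the lowest. The difference was -0.37 ± 0.23 at rest (adjusted p = 0.219), with a 95% interval from -0.86 to 0.12, and -0.86 ± 0.23 at 5 h (1.81-fold lower, adjusted p = 0.00465; -1.22 within the shared run). Replicate 3 was the lowest Tbc1d23 array at every time, and with run as a block the resting difference was -0.76 (adjusted p = 0.000544), or -0.79 within the shared run (adjusted p = 0.0282). The call at 3 h, -0.71 ± 0.23 (adjusted p = 0.0161), was lost without CAT replicate 1 at 3 h (-0.59, adjusted p = 0.0721), without Tbc1d23 replicate 3 at 3 h (-0.49, adjusted p = 0.0986) and under median scaling (-0.68, adjusted p = 0.168). The single Cyba probe spans chr8:124950893-124951161 on the minus strand.

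Of the cytosolic subunits, Ncf4 was lower and Ncf1, on its brightest probe, was not. Ncf4 read 6.81, 7.01 and 6.93 on the resting CAT arrays and 5.78, 5.94 and 6.04 on the resting Tbc1d23 arrays, with no overlap. The difference was -1.0 ± 0.18 at rest (2-fold lower, adjusted p = 0.000188; -0.88 within the shared run), and -1.45 at 5 h (2.73-fold lower, adjusted p = 2.01e-06; -1.09 within the shared run). Ncf1 read 1.67, 1.38 and 1.32 in the resting CAT line and 1.81, 1.72 and 1.44 in the resting Tbc1d23 line, where the groups overlapped. Its difference was 0.20 at rest (adjusted p = 0.193; -0.01 within the shared run) and it was the single member called higher in the Tbc1d23 line, by 0.58 ± 0.12 at 3 h (adjusted p = 0.000623) and 0.51 ± 0.12 at 5 h (1.42-fold, adjusted p = 0.00194). Neither call held under median scaling (0.62 with adjusted p = 0.153, and 0.26 with adjusted p = 0.579), and at 5 h the difference within the shared run was 0.31 (adjusted p = 0.107). The probes of Ncf1 disagreed, and the values above are those of the probe that was brighter over all arrays. In the resting CAT line the other probe was the brighter of the pair (mean 2.01 against 1.46). That probe gave -0.56 ± 0.16 at rest (adjusted p = 0.00853) and -0.02 at 5 h. At 3 h its means were 1.43 in the Tbc1d23 line and 1.38 in the CAT line. Across the 24 arrays the probes correlated at -0.07. The Ncf1 probes lie at chr5:134697399-134697458 and chr5:134696729-134696788 on the minus strand and the Ncf4 probe at chr15:78092903-78092962 on the plus strand (mm9).

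Among the receptors, the inhibitory Fcgr2b differed most at rest. It read 1.78, 2.16 and 2.10 on the resting CAT arrays and -1.25, -1.26 and -1.23 on the resting Tbc1d23 arrays. The lines did not overlap at any time, and the Tbc1d23 arrays were lower throughout. The difference was -3.26 ± 0.13 at rest (9.59-fold lower, limma adjusted p = 4.58e-13; -3.25 within the shared run), -2.56 ± 0.13 at 3 h (5.89-fold) and -3.64 at 5 h (12.5-fold; -3.45 within the shared run). The other Fcgr2b probes gave -2.74 and -3.40 ± 0.32 at rest, and the 3 probes correlated at 0.97 to 1.00 with each other over 24 arrays. The brightest of them was printed in 10 spots on each array, which varied with an SD of 0.06 to 0.17 within an array. The 3 probes lie between chr1:172890988-172891047 and chr1:172895833-172895892 on the minus strand (mm9).

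Fcgr4, an activating receptor for some IgG subclasses, read -0.46, -0.32 and -0.25 in the resting CAT line and -2.91, -2.39 and -2.12 in the resting Tbc1d23 line. The Tbc1d23 arrays were all lower, with a difference of -2.13 ± 0.20 (4.38-fold lower, adjusted p = 1.12e-07; -1.78 within the shared run). The gap widened with LPS, to -4.06 ± 0.20 at 3 h (16.7-fold) and -5.57 ± 0.20 at 5 h (47.5-fold, adjusted p = 8.64e-14; -5.33 within the shared run), which was the largest line difference of any member at any time. The processed signal of Fcgr4 at 5 h was 36.2 to 45.2 units in the Tbc1d23 line, against 1250 to 1720 in the CAT line. At such low signals the size of a fold or of a change depends on the background subtraction. The Fcgr4 probe lies at chr1:172959738-172959797 on the plus strand.

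Fcgr1 and Fcer1g did not differ beyond their spread at rest and were lower in the Tbc1d23 line at 5 h. Fcgr1 read 5.41, 5.67 and 5.68 on the resting CAT arrays and 5.04, 5.29 and 5.56 on the resting Tbc1d23 arrays, which overlapped. The difference was -0.29 ± 0.18 (adjusted p = 0.212), with an interval from -0.66 to 0.09 (-0.02 within the shared run), and its dimmer probe, with a smaller SE, gave -0.43 ± 0.15 (adjusted p = 0.0249). At 5 h the CAT arrays read 7.47, 7.57 and 7.71 and the Tbc1d23 arrays 4.74, 4.86 and 5.17, a difference of -2.66 ± 0.18 (6.32-fold lower, adjusted p = 4.92e-10; -2.42 within the shared run). Fcer1g read 6.05, 6.11 and 5.99 in the resting CAT line and 5.76, 5.94 and 6.30 in the resting Tbc1d23 line, whose spread contained all 3 CAT arrays. Its difference was -0.05 (adjusted p = 0.88; interval -0.47 to 0.38; 0.25 within the shared run) at rest and -0.91 ± 0.20 at 5 h (1.88-fold lower, adjusted p = 0.000903). Tbc1d23 replicate 3 was the highest of its group at every time: with run as a block the resting difference was 0.31 (adjusted p = 0.042), and within the shared run the difference at 5 h was -0.48 (adjusted p = 0.0597). The probes lie at chr3:96088140-96088199 and chr3:96088398-96088461 for Fcgr1 and at chr1:173159794-173159853 and chr1:173159846-173159918 for Fcer1g, all on the minus strand.

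**Figure D2:**
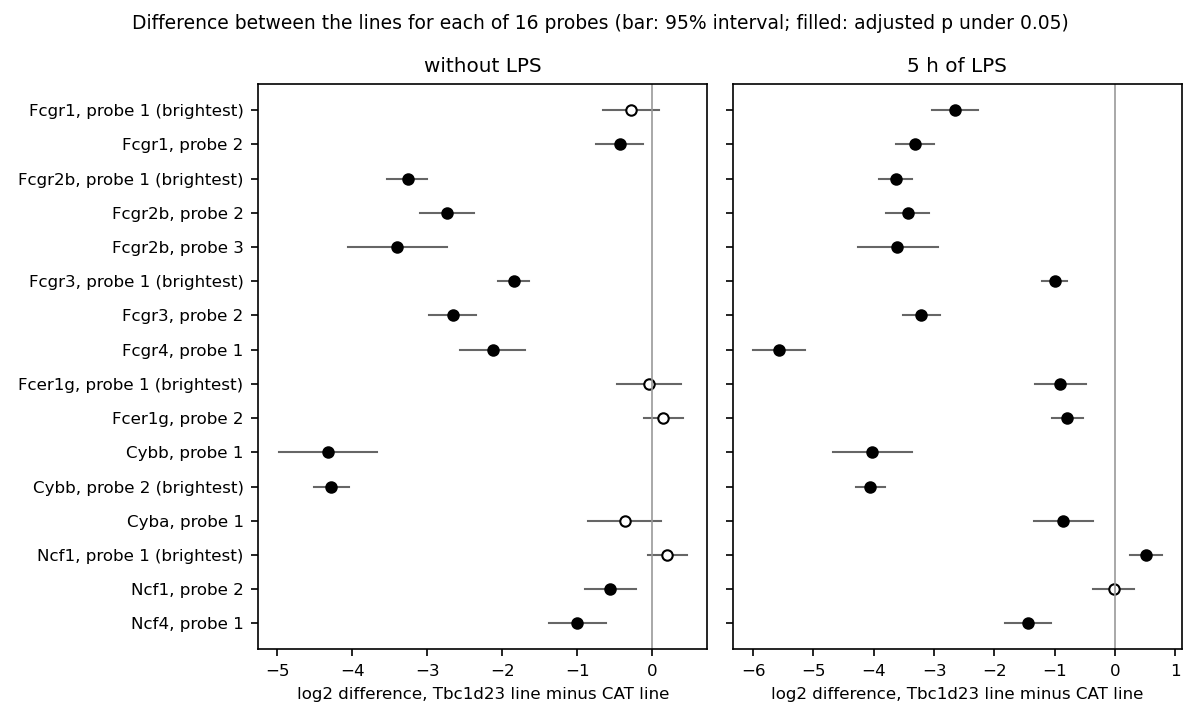
Log2 difference between the lines, Tbc1d23 minus CAT (x axis), for each of the 16 probes (y axis), without LPS (left) and after 5 h of LPS (right), with 95% intervals as bars and filled points where the adjusted p was under 0.05. Probes of Cybb and Fcgr2b lie far below 0 in both panels, and Fcgr1 and Fcgr4 lie further down at 5 h.

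Over the time course the count of called members rose with the number of genes called. At 1 h it was 5 of 9, all lower (45.7% of all genes called, 21.2% lower and 24.6% higher), at 3 h it was 7, with 6 lower (51% called, 23.7% lower and 27.4% higher), and at 5 h all 9, with 8 lower (53.5% called, 23.5% lower and 30% higher). Averaged over the times, 8 were lower and Ncf1 higher where 70.7% of all genes were called, 32.3% lower and 38.4% higher. These averages take the arrays of a slide as independent. With slide taken as random 54.3% of all genes were called, and no member lost its call. The average of Ncf1 was not called with the mean of its probes (0.10, adjusted p = 0.134) or under median scaling (0.17, adjusted p = 0.36), and that of Fcer1g was 0.02 with run as a block. Of the genes called, scaling to the array median moved the share that was higher in the Tbc1d23 line from 53.7 to 40.8% at 1 h, from 56 to 38.2% at 5 h and from 54.3 to 37.3% for the average.

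Fcgr3 was represented by a pair of probes whose responses differed, so both sequences are given, 5′ to 3′. The brightest probe, A_51_P328613, aligned in blocks over chr1:172981647-172981722, and A_52_P408757 lies at chr1:172984129-172984188, both on the minus strand (mm9), which puts the dimmer probe upstream along the transcript.
Fcgr3 A_51_P328613: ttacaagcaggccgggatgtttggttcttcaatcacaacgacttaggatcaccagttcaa
Fcgr3 A_52_P408757: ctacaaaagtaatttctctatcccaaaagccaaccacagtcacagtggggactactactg
On the brightest probe the resting CAT arrays read 2.46, 2.80 and 2.63 and the resting Tbc1d23 arrays 0.81, 0.78 and 0.75. On the upstream probe they read 0.70, 1.15 and 1.01 against -1.75, -1.83 and -1.54. Both probes were lower in the resting Tbc1d23 line without overlap, with differences of -1.85 ± 0.10 (3.61-fold lower, adjusted p = 3.76e-11; -1.88 within the shared run) and -2.66 ± 0.15.

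With LPS the Fcgr3 probes parted in the CAT line. The brightest probe fell to 0.79, 0.95 and 0.79 at 5 h, a change of -1.79 ± 0.10 (3.45-fold lower, limma adjusted p = 2.3e-11). The upstream probe went the other way, to 1.57, 1.89 and 1.59, a rise of 0.73 ± 0.15 (adjusted p = 0.000478). In the Tbc1d23 line the brightest probe fell by 0.94 on the log2 scale at 5 h (1.92-fold, adjusted p = 2.67e-06), and the upstream probe read -1.46, -1.69 and -1.45, a change of 0.18 that did not pass the test (adjusted p = 0.725). Under median scaling the change of the brightest probe in the Tbc1d23 line was -0.68 (adjusted p = 0.508). The difference of the probes within an array, of which only the shift between arrays is read, went from between 1.63 and 1.76 at rest to between -0.94 and -0.78 at 5 h in the CAT line, and from between 2.28 and 2.62 to between 1.31 and 1.45 in the Tbc1d23 line. The upstream probe followed Fcgr2b, with a correlation of 0.97 over the 24 arrays and 0.87 over the 12 CAT arrays, where the brightest Fcgr3 probe had 0.51 and -0.80. These are descriptions across arrays that share lines and times. The genes have similar extracellular domains. The best ungapped match of the upstream probe to a Fcgr2b probe was 46.5% (20 of 43 bases). That match compares probe with probe and not with the rest of the Fcgr2b transcript. It therefore cannot tell whether the upstream probe captures that transcript, and capture of another receptor's transcript was not tested.

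**Figure D3:**
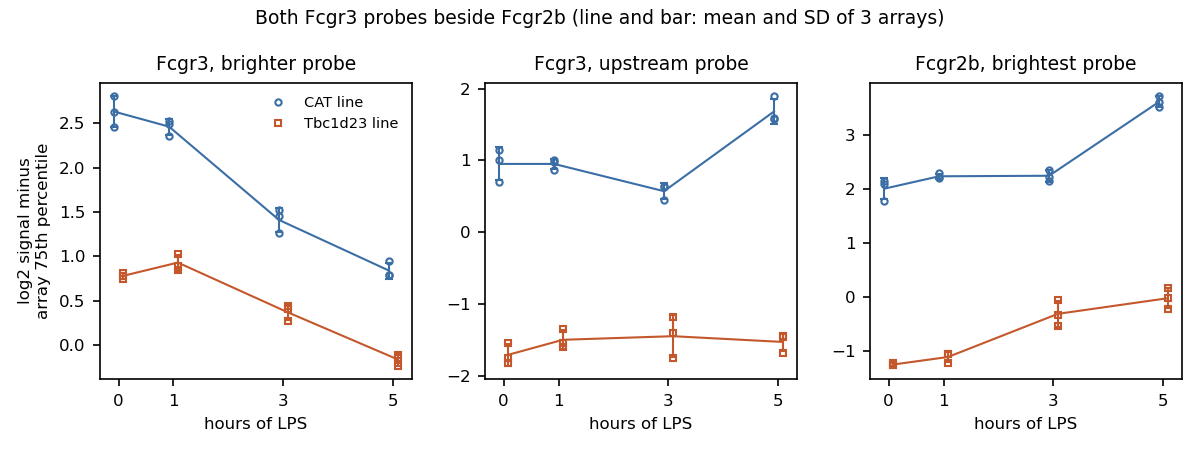
Levels of both Fcgr3 probes and of Fcgr2b (y axis: log2 processed signal relative to the array's 75th percentile) against hours of LPS (x axis) in each line, with points for arrays, and lines and bars for the mean and SD of 3 arrays. In the CAT line the brightest Fcgr3 probe falls to between 0.79 and 0.95 at 5 h while the upstream probe rises to between 1.57 and 1.89, as Fcgr2b does.

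In the CAT line, 6 of the 9 genes rose after 5 h of LPS, and the activating receptors Fcgr4 and Fcgr1 moved most. Fcgr3 fell on its brightest probe, while its upstream probe rose. The median change of the 9 genes was 0.85, against 0.01 over all genes, where 41.6% were called, 18.3% higher and 23.3% lower. At 1 h no member passed the limma test, with 7.53% of all genes called, and with the replicate as a block Fcgr3 was called (-0.18, adjusted p = 0.0463), with 17.5% of all genes. At 3 h 3 members were called, Fcgr4 and Cybb higher and Fcgr3 lower, with 34.9% of all genes called (16.1% higher, 18.7% lower). Same-numbered arrays of a line share a slide, and with the replicate as a block within the line 6 were called at 3 h, with Fcer1g (0.40, adjusted p = 0.00188), Cyba (0.39, adjusted p = 0.0127) and Ncf4 (0.36, adjusted p = 0.0147) added; that block called 48.9% of all genes.

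Fcgr4 rose early and far in the CAT line. It read 1.69, 1.53 and 1.26 at 3 h and 3.08, 2.87 and 3.04 at 5 h, from at most -0.25 at rest. The rise was 1.83 ± 0.20 at 3 h (3.57-fold, limma adjusted p = 6.51e-07) and 3.34 ± 0.20 at 5 h (10.1-fold, adjusted p = 1.11e-10). Fcgr1 rose late: the 3 h arrays, at 5.57, 5.40 and 5.07, overlapped the resting ones (-0.24, adjusted p = 0.379), and at 5 h the rise was 2.00 ± 0.18 (3.99-fold, adjusted p = 2.65e-08). Fcgr2b was also called at 5 h and not at 3 h, with 2.36, 2.22 and 2.15 at 3 h and 3.61, 3.72 and 3.52 at 5 h, a rise of 0.23 (adjusted p = 0.185) and then of 1.60 ± 0.13 (3.03-fold, adjusted p = 3.97e-09). Fcer1g rose to 7.15, 6.79 and 6.76 at 5 h, above all resting arrays, by 0.85 ± 0.20 (1.81-fold, adjusted p = 0.00194; 0.82 with adjusted p = 0.107 under median scaling).

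Of the oxidase genes, Cybb rose in the CAT line by 1.14 ± 0.11 at 3 h (2.2-fold, adjusted p = 1.25e-07) and, at 5.35, 5.57 and 5.51, by 1.45 ± 0.11 at 5 h (2.73-fold, adjusted p = 3.54e-09). Ncf4 rose at 5 h to 7.68, 7.48 and 7.40, by 0.60 ± 0.18 (1.52-fold, adjusted p = 0.0113), a call lost without CAT replicate 1 at 5 h (0.52, adjusted p = 0.0524), after quantile normalization (0.25, adjusted p = 0.133) and under median scaling (0.57, adjusted p = 0.312). Cyba at 5 h, at 5.36, 5.08 and 5.01, stood above the resting arrays but did not pass (0.52, adjusted p = 0.0866, interval 0.03 to 1.01), nor did Ncf1 (0.21, adjusted p = 0.198). With the replicate as a block both did (adjusted p = 0.00145 and 0.00782), as did 56.8% of all genes.

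In the Tbc1d23 line Cybb and Fcgr2b rose with LPS, and no rise of Fcgr1, Fcgr4, Fcer1g, Cyba or Ncf4 passed the test. At 5 h 3 of 9 were higher and 1 lower, with 6.35% of all genes called, 3.02% higher and 3.33% lower; the median change was 0.03. At 3 h 2 were higher and 1 lower, with 6.78% called (3.48% higher, 3.3% lower), and at 1 h none was called, with 1.66% called. Under median scaling, where nearly all calls in this line are higher (91.9% against 47.5% of the genes called at 5 h), 2 members were called at 5 h.

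Cybb read 1.23, 1.32 and 1.25 at 3 h and 1.5, 1.30 and 1.44 at 5 h in the Tbc1d23 line, all above its resting arrays. The rise was 1.51 at 3 h (2.85-fold, limma adjusted p = 2.31e-08) and 1.66 ± 0.11 at 5 h (3.16-fold, adjusted p = 9.36e-09). Fcgr2b read -0.53, -0.34 and -0.06 at 3 h and -0.02, -0.22 and 0.17 at 5 h. The rise passed the test at 3 h, by 0.94 ± 0.13 at 3 h (1.91-fold, adjusted p = 4.74e-05) and 1.22 ± 0.13 at 5 h (2.34-fold, adjusted p = 2.21e-06). Even so, the highest Tbc1d23 array of either gene stayed below every CAT array, resting ones included.

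Fcgr4 read -3.03, -2.36 and -2.33 at 5 h in the Tbc1d23 line, over the range of its resting arrays, a change of -0.10 (adjusted p = 0.995) with an interval from -0.53 to 0.33. Fcgr1, at 4.74, 4.86 and 5.17, overlapped its resting arrays, with a change of -0.38 (adjusted p = 0.323; interval -0.76 to 0.00). It was called lower with slide taken as random (adjusted p = 0.0415) and with the mean of its probes (-0.44, adjusted p = 0.0341). The change of Fcer1g was -0.01 (interval -0.44 to 0.41). In the CAT line the changes were 3.34 for Fcgr4 (interval 2.91 to 3.77), 2.00 for Fcgr1 (1.62 to 2.37) and 0.85 for Fcer1g (0.43 to 1.28). The direct test of these differences in response is given further on. Fcgr4 signals were 36.2 to 45.2 units on the 5 h Tbc1d23 arrays, where the size of a change depends on the background subtraction. Fcgr3 fell by 0.41 on the log2 scale at 3 h (adjusted p = 0.0137). That call was lost without Tbc1d23 replicate 1 at 0 h (-0.39, adjusted p = 0.0538), without replicate 2 at 3 h (-0.35, adjusted p = 0.0862), without the slide of replicate 3 (-0.44, adjusted p = 0.0603) and with the mean of both probes (-0.07, adjusted p = 0.871), and the change was 0.14 (adjusted p = 0.71) under median scaling. Ncf1 was 2.24, 2.30 and 1.97 at 5 h, a rise of 0.51 ± 0.12 (1.43-fold, adjusted p = 0.0137). It was lost without Tbc1d23 replicate 3 at 0 h (0.40, adjusted p = 0.0853), without replicate 1 at 5 h (0.48, adjusted p = 0.06) or without replicate 2 at 5 h (0.45, adjusted p = 0.082), under median scaling (0.77, adjusted p = 0.508) and with the repaired background correction (0.43, adjusted p = 0.0971), and the other Ncf1 probe changed by 0.14. With the replicate as a block Ncf1 was also called at 3 h (0.29, adjusted p = 0.00381), with 16.7% of all genes.

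**Figure D4:**
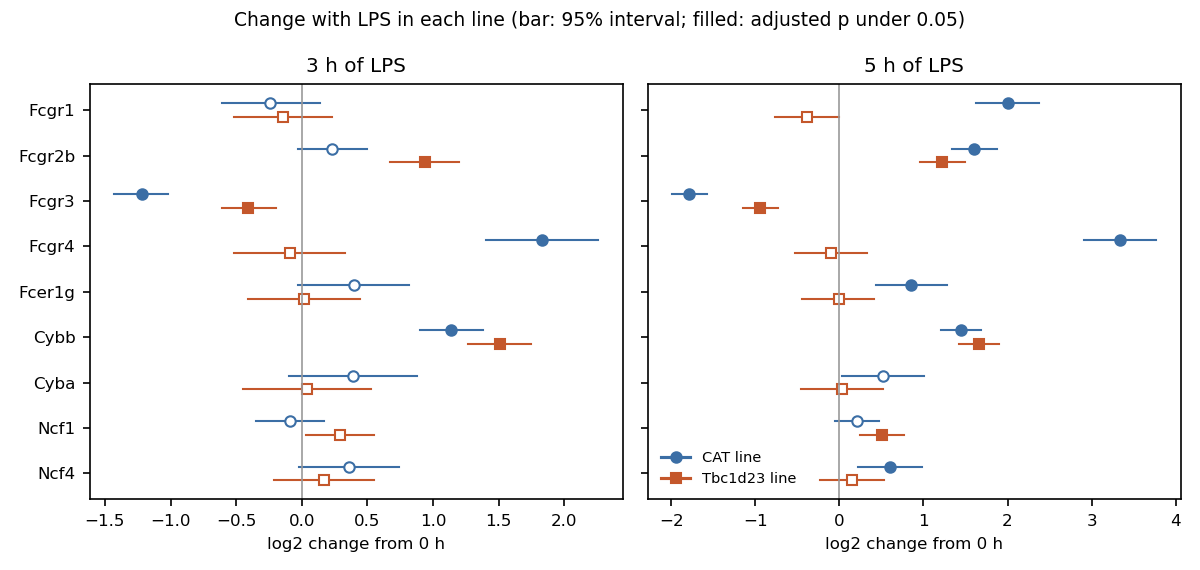
Log2 change from 0 h (x axis) after 3 and 5 h of LPS for each of the 9 genes (y axis), in colours for the CAT and the Tbc1d23 line, with 95% intervals as bars and filled points where the adjusted p was under 0.05. At 5 h Fcgr4 and Fcgr1 stand at 3.34 and 2.00 in the CAT line and at -0.10 and -0.38 in the Tbc1d23 line, while the changes of Cybb lie close together.

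The difference between the lines in the response to LPS was tested directly, as the Tbc1d23 change minus the CAT change. It was called for 4 members at 5 h, 3 lower and 1 higher, with 23.2% of all genes called (10.6% lower, 12.6% higher), for 3 at 3 h, with 16.7% called (8.37% lower, 8.31% higher), and for none at 1 h, with 2.4% called. Fcgr4 had the largest, -3.44 ± 0.29 at 5 h (adjusted p = 3.69e-08) and -1.93 ± 0.29 at 3 h (adjusted p = 6.93e-05), where the 3 h call was lost after quantile normalization (-1.48, adjusted p = 0.064), in the deposited values (-1.48, adjusted p = 0.0644) and under median scaling (-1.35, adjusted p = 0.151). Fcgr1 had -2.37 ± 0.25 at 5 h (adjusted p = 8.46e-07), and its dimmer probe -2.89.

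Fcgr3 fell less in the Tbc1d23 line, by 0.82 ± 0.14 at 3 h (adjusted p = 0.000263) and 0.85 ± 0.14 at 5 h (adjusted p = 0.000125). At 3 h the upstream probe went the same way (0.64, adjusted p = 0.0412). At 5 h the upstream probe gave -0.55 (adjusted p = 0.0667), the mean of both probes 0.15 (adjusted p = 0.558), and median scaling of the brightest probe 1.14 (adjusted p = 0.0768). Fcgr2b rose more in the Tbc1d23 line at 3 h, by 0.70 ± 0.18 (adjusted p = 0.00857), which the mean of its probes (0.67, adjusted p = 0.0553), the repaired background correction (0.42, adjusted p = 0.0614) and median scaling (1.28, adjusted p = 0.0687) did not call, and the difference at 5 h was -0.38 (adjusted p = 0.15). The latter was called with slide taken as random (adjusted p = 0.0459) and with the repaired background correction (-0.65, adjusted p = 0.00232). For Cybb the difference was 0.21 ± 0.16 at 5 h (adjusted p = 0.415), with an interval from -0.12 to 0.55.

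For Fcer1g the difference in response was -0.86 ± 0.29 at 5 h (adjusted p = 0.0343), near the threshold. Without CAT replicate 1, 2 or 3 at 0 h it was -0.86, -0.89 and -0.83 (adjusted p = 0.0556, 0.0505 and 0.0697), without CAT replicate 1 at 5 h -0.74 (adjusted p = 0.0929), without Tbc1d23 replicate 3 at 0 h -0.71 (adjusted p = 0.0946), and without Tbc1d23 replicate 1 or 2 at 5 h -0.79 and -0.72 (adjusted p = 0.0777 and 0.0972). It was -0.59 after quantile normalization (limma adjusted p = 0.145) and -0.59 in the deposited values (adjusted p = 0.144). Under median scaling it was -0.57 (adjusted p = 0.633). Without the filter on dim probes it was -0.86 (adjusted p = 0.0625), and within the shared run -0.73. Its other probe gave -0.93 ± 0.17 (adjusted p = 0.000413). With the replicate as a block within the line, 6 differences in response were called at 3 h and 7 at 5 h, where the block called 30.3 and 39.8% of all genes. The calls added at 3 h were Fcer1g (-0.38, adjusted p = 0.0352), Cybb (0.37, adjusted p = 0.0397) and Ncf1 (0.38, adjusted p = 0.00333), and at 5 h Cyba (-0.49, adjusted p = 0.029), Ncf1 (0.30, adjusted p = 0.0112) and Ncf4 (-0.45, adjusted p = 0.035). At 1 h the block added Fcgr3 (0.32, adjusted p = 0.0279), with 5.82% of all genes called.

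Promoter sequences are shown for Fcgr4 and Fcgr1, whose responses differed most between the lines, and for Cybb, whose resting level did. RefSeq's windows, 250 bases before to 50 after the gene's start, were matched for 8 of the 9 genes, all but Ncf4. They were searched on both strands for GAGGAA (the ETS core bound by PU.1), an interferon response element (GAAA, any 2 bases, GAAA), an ETS and IRF composite (GGAA, any 2 bases, GAAA), TTCNNNGAA (GAS) and TGANTCA (AP-1). The windows are given 5′ to 3′ along the gene, in GRCm38.p6, with matches in capitals: Fcgr4 from chr1:171018676-171018975 on the plus strand, Fcgr1 from chr3:96293920-96294219 on the minus strand and Cybb from chrX:9469275-9469574 on the minus strand.
Fcgr4 promoter: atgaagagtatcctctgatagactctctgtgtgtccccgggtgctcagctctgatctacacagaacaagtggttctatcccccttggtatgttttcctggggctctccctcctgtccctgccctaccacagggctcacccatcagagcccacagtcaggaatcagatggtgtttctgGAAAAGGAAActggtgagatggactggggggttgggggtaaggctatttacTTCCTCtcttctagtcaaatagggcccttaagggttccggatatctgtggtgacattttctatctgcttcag
Fcgr1 promoter: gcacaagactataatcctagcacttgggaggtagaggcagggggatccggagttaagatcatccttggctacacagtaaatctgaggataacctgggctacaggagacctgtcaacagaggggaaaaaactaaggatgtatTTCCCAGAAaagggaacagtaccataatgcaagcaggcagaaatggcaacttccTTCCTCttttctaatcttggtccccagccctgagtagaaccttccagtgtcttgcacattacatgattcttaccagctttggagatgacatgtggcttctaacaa
Cybb promoter: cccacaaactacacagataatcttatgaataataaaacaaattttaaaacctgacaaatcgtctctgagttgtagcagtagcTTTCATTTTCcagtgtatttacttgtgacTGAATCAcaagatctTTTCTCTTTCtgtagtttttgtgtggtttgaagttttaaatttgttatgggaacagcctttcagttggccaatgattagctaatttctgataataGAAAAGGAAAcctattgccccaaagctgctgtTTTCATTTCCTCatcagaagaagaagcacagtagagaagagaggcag

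The Fcgr4 window held GAAAAGGAAA, a match to the interferon response element, starting at -73 from the gene's start, and an ETS core at -22. The Cybb window held the same 10 letters at -29, with further matches to that element at -168 and -124, an AP-1 match at -139, and a composite match at 4 that overlaps an ETS core at 10. The Fcgr1 window held no match to that element, a GAS match at -109 and an ETS core at -55. Of all 32851 promoters of this length, 3.44% held the interferon response element, against 3 of the 8 members (Fcgr4, Cybb and Ncf1). GAGGAA was held by 28.3% of all and by 4 of the 8, TTCNNNGAA by 8.3% and 2 of the 8, the composite by 2.72% and 2 of the 8, and TGANTCA by 7.81% and 1 of the 8. Windows of Fcer1g and Cyba held none of the 5. A match is a description of letters, not of a bound site.

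The genes of Fcgr2b, Fcgr4 and Fcgr3 are neighbours on chromosome 1 in RefSeq's order, with Fcer1g further along. All 3 neighbours were lower in the resting Tbc1d23 line, and so were the next genes, Cfap126 (-0.74 ± 0.11, adjusted p = 2.12e-05) and Sdhc, a subunit of succinate dehydrogenase (-0.61 ± 0.09, adjusted p = 1.72e-05). Pcp4l1 and Tomm40l, which lie between Sdhc and Fcer1g, did not pass the test. With LPS the 3 neighbours went separate ways in the CAT line, with Fcgr4 and Fcgr2b rising and Fcgr3's brightest probe falling.

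Across the 8 group means the levels of Cybb, Fcgr2b and Ncf4 varied together, with correlations of 0.98 to 0.99 in pairs, and so did those of Fcgr4 and Cyba (0.99). Fcgr4 and Cyba also varied with Cybb, Fcgr2b and Ncf4, at 0.92 to 0.98. Ncf1 ran against Fcgr3 (-0.85). Among 9521 gene symbols well above background on every array, the closest to Fcgr4 were Tnfsf13b (0.998), Psme1 (0.997) and Cfl1 (0.997), to Fcer1g Pnpt1 (0.998), Parp12 (0.997) and Pnp (0.997), and to Cyba Enpp4 (0.998), Vbp1 (0.998) and Slc2a6 (0.996). Those closest to Cybb were Rpsa (0.994), S100a13 (0.993) and Kif3b (0.993), to Ncf4 Sh3bgrl (0.999), Hspbp1 (0.998) and Cd52 (0.998), and to Fcgr3 Tacc3 (0.998), Tmem175 (0.995) and Vac14 (0.993). For Fcgr2b they were Acadsb (0.992), Map3k11 (0.99) and Rasa4 (0.989), for Fcgr1 Triobp (0.985), Naip2 (0.976) and Prl3d1 (0.969), and for Ncf1 Mon1a (0.987), Kdm5b (0.958) and Ppp3r1 (0.953). These are 8 points that share lines, times and slides, and the correlations are given as a description.

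The other genes of the oxidase and of the Fc receptor pathway were followed as lists, whose counts stand beside 45.3% of all genes called between the resting lines (20.2% lower, 25.1% higher), 41.6% called at 5 h of LPS in the CAT line and 6.35% in the Tbc1d23 line. Of 8 oxidase partners, which include the Rac GTPases and the kinases that phosphorylate p47phox, 1 was lower in the resting Tbc1d23 line, Prkcd (protein kinase C delta, -1.64 ± 0.12), and none was higher. In that list 3 were lower after quantile normalization or in the deposited values, and 2 lower and 1 higher with the repaired background correction. In the CAT line 2 of the 8 rose at 5 h, Prkcd by 2.24 and Rac2 by 0.58 ± 0.20 (adjusted p = 0.0227), and in the Tbc1d23 line none did. The call for Rac2 was lost after quantile normalization (0.27, adjusted p = 0.24), in the deposited values (0.27, adjusted p = 0.247) and under median scaling (0.54, adjusted p = 0.37). Of 9 genes of other NADPH oxidases 3 could be tested, and Noxo1 was lower in the resting Tbc1d23 line (-0.61 ± 0.24, adjusted p = 0.0483; -0.30 with adjusted p = 0.0621 after the repaired background correction). Of 12 other Fc receptor genes 5 could be tested. Fcrl1 was higher at rest (1.31 ± 0.26) and Trim21, the cytosolic Fc receptor, lower (-0.49 ± 0.14), and under median scaling 2 of the 5 were lower and none was higher. Trim21 rose by 3.06 ± 0.14 at 5 h in the CAT line and changed by -0.28 in the Tbc1d23 line.

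Of 22 genes tested that signal from ITAM or ITIM motifs, 8 were lower and 4 higher in the resting Tbc1d23 line, with a median of -0.09; under median scaling 8 were lower and none was higher. The Src family kinase Fgr was lower (-2.05 ± 0.14), and the lipid phosphatase gene Inppl1 was higher (1.38 ± 0.26). At 5 h of LPS 7 rose and 9 fell in the CAT line, where Src rose by 4.53 ± 0.16 and Fgr by 4.03 ± 0.14; in the Tbc1d23 line 5 rose and 3 fell, Src by 1.1 and Fgr by 1.52 among those that rose. Of 9 genes of phagocytic uptake, 4 were higher and 1 lower at rest, with Elmo1 at 0.74 ± 0.22, Arf6 at 0.72 ± 0.22 and Pla2g4a at 0.40 ± 0.11; under median scaling none of the list was called higher.

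Of 9 transcription factors that act on these genes in phagocytes, 6 were lower and 2 higher in the resting Tbc1d23 line, at a median of -0.79; under median scaling 6 were lower and none was higher. Cebpa differed by -2.22 ± 0.12, Irf8 by -1.36 ± 0.12 and Spi1, which encodes PU.1, by -1.04 ± 0.22. In the CAT line 5 of the 9 rose at 5 h and 1 fell, with Irf1 at 2.77 ± 0.18 among those that rose. The change of Irf1 in the Tbc1d23 line was -0.48 (adjusted p = 0.14). Of 10 genes tested that remove reactive oxygen, 5 were higher and 1 lower in the resting Tbc1d23 line, with haem oxygenase Hmox1 at 3.26 ± 0.27, Txnrd1 at 0.81 ± 0.16 and Prdx2 at -0.62 ± 0.14; under median scaling 1 was higher and 2 were lower. In the CAT line 4 rose and 2 fell at 5 h, mitochondrial superoxide dismutase Sod2 by 2.12 ± 0.16 and Prdx5 by 1.63 ± 0.10. Within the shared slide run 26 genes of these lists were called at rest, against 35 over all arrays, where the shares of all genes called were 34.6 and 45.3%.

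**Figure D5:**
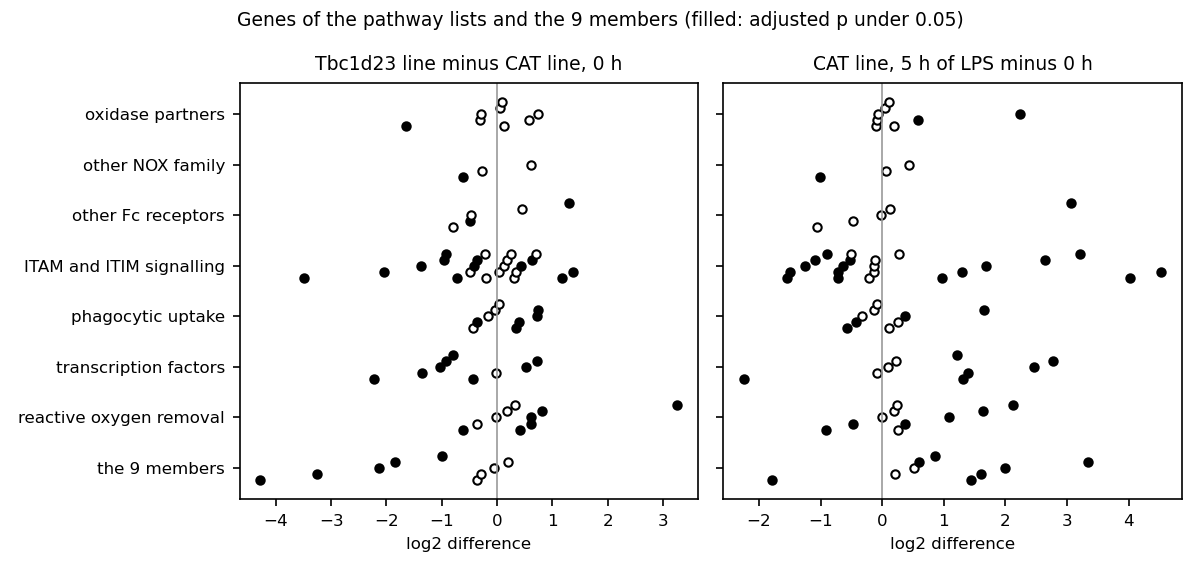
Log2 differences (x axis) of the genes of each pathway list and of the 9 members (y axis), with 1 point per gene, filled where the adjusted p was under 0.05. The members, each by its brightest probe, lie at or below 0.20 in the resting line comparison (left). In the CAT line at 5 h of LPS (right) Fcgr3 at -1.79 is the member that fell, while its upstream probe, not shown, rose.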

How the data were processed

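RNA from each sample was labelled with Cy3 and hybridised to a one-colour Agilent mouse array, per the labels. The scanner files deposited by the authors hold the intensity of each spot; the headers name Agilent Feature Extraction, version 10.7.1.1. Its processed signal has the background subtracted, and a surrogate stands in for low values. The deposited value table was used as an alternative; its log2 scale was found from the values, which rank as the processed signal does (Spearman 0.9997 to 1 per array), and RMA and Partek are named in the submitters' processing notes with no version or role.

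From these, outlier spots were removed (0.113 to 0.406% per array), spots of a probe averaged, and log2 values set relative to each array's 75th percentile over non-control spots. Of 41174 probes, 21960 passed a filter, which asked that every array of some group be well above background, and each gene took its brightest probe (15095 genes, 5069 with several). Group means were fitted with limma 3.58.1 in R 4.3.3, with 1 spread for all groups and Benjamini-Hochberg adjustment within each comparison. The script was tested on simulated arrays with no slide effect and with changes only in the resting line comparison. That test does not cover p-values of averages over times or of changes with LPS. The number of arrays limits the precision, and 3 against 3 arrays cannot go below p = 0.1 in an exact permutation test, so the p-values given are limma's. Coordinates of probes come from the files (mm9); 25097 probes matched a RefSeq symbol.

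Within a line, same-numbered arrays deviated together (correlations of 0.19 to 0.79, each array closest to its own number), and the headers place them on the same slide, so the number pairs samples within a line and not between lines (-0.41 to -0.07). Genes named beside the 9 members are, per pathway list, up to 3 with the largest called difference between resting lines and up to 2 with the largest called response of the CAT line at 5 h, well above background on all 6 arrays; the 3 genes most correlated with each member; and Tbc1d23. The chromosome 1 neighbours and the macrophage markers given were named after their values were seen. The members and lists were chosen with earlier results of these data known. Some genes that the naming rule picks are not reported here. Alternatives covered scaling, background correction, the filter, the mean of probes, blocks for replicate, slide and run, and leaving out each array or the slide of Tbc1d23 replicate 3; the last and a repaired background correction were added after the data were seen.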

Additional observations from a re-analysis of the deposited data

Results flagged for a closer look

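In 7 comparisons the lines differed in the response of a member to LPS, by limma's test of the difference itself (Tbc1d23 change minus CAT change, n = 3 arrays per group). At 3 h these were Fcgr4 at -1.93 (adjusted p = 6.93e-05), Fcgr3 at 0.82 (adjusted p = 0.000263) and Fcgr2b at 0.70 (adjusted p = 0.00857). At 5 h they were Fcgr4 at -3.44 (adjusted p = 3.69e-08), Fcgr1 at -2.37 (adjusted p = 8.46e-07), Fcgr3 at 0.85 (adjusted p = 0.000125) and Fcer1g at -0.86 (adjusted p = 0.0343). Of all genes tested, 16.7% differed this way at 3 h and 23.2% at 5 h. Fcgr4 and Fcgr1 at 5 h were called under every setting tried, while the others lost the call under at least 1 setting, except Fcgr3 at 3 h.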

How the results depend on the processing

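The members' calls were recomputed under 37 settings, of which 24 left out 1 array each. Over the 126 gene and comparison pairs, keeping the probes well above background on all 24 arrays changed no call, and median scaling ended 12, the most of any setting, with 1 reversal: Fcgr3 at 3 h in the Tbc1d23 line, 0.14 (adjusted p = 0.71). Under median scaling 2 members were called at 5 h in the Tbc1d23 line (main 4), 1 response difference at 3 h (main 3) and 2 at 5 h (main 4), and 23 pathway list genes at rest (main 35), where the scaling called 1.47, 7.34, 8.92 and 30.9% of all genes. The replicate block within the line called 1 member at 1 h and 6 at 3 h in the CAT line, and 1, 6 and 7 response differences at 1, 3 and 5 h; it ended no call, and its shares of all genes were 17.5, 48.9, 5.82, 30.3 and 39.8%. The replicate block across lines, whose numbers are not a pairing, changed no count by over 1.5 times and added 5 calls, with 11 of 16 probes called at rest as in the main fit. With the slide as a random block (within-slide correlation 0.568), 6 members were called at 3 h in the CAT line, 1 at 1 h in the Tbc1d23 line, and 1, 5 and 8 response differences at 1, 3 and 5 h, with 47.4, 4.79, 6.17, 29.9 and 38.4% of all genes called. With run as a block, 5 were called at 3 h in the CAT line (42% of all genes), Fcer1g reversed at rest (0.31, adjusted p = 0.042) and over the times (0.02), also within the shared run (0.02). Within the run a change of the Tbc1d23 line with LPS compares 1 array with 1 array, with the spread taken from the CAT arrays, so lost calls there say little. The Tbc1d23 transcript, averaged over times, was 0.40 with that block (adjusted p = 0.000555), 0.40 within the run (adjusted p = 0.00787) and 0.27 with the mean of probes (adjusted p = 0.00196). Where no cause is shown by the setting itself, the cause was not tested.

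Leaving out 1 array, the members called between lines ranged from 5 to 5 at 0 h, 5 to 6 at 1 h, 6 to 7 at 3 h, 9 to 9 at 5 h and 9 to 9 over the times. In the CAT line they ranged from 6 to 7 at 5 h, in the Tbc1d23 line from 2 to 3 at 3 h and 3 to 4 at 5 h, and the response differences from 3 to 3 at 3 h and 3 to 4 at 5 h. The Tbc1d23 transcript ranged from -0.01 to 0.07, the probes called from 10 to 11 and the list genes from 28 to 37. Among 4653 values compared, 117 changed sign without being called. Plain normexp could not be fitted on 6 arrays, so a repaired fit was used. Of the genes called, the share that was higher moved with median scaling from 48.5 to 75.7% at 1 h in the CAT line, from 50.4 to 83% and 51.4 to 93.6% at 1 and 3 h in the Tbc1d23 line, and for response differences from 26.4 to 12.9% at 1 h and 49.8 to 65.8% at 3 h. Dim probes, near background, carry little information, and the number of arrays limits the rest.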
